A study of Mus musculus with 4 samples.

Results

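The small leucine-rich proteoglycans are secreted proteins of the extracellular matrix with a core of leucine-rich repeats. The 10 members described here, chosen by gene symbol from the 31053 genes of the count tables, were Dcn (decorin), Lum (lumican), Fmod (fibromodulin), Bgn (biglycan), Ogn (osteoglycin), Prelp, Omd (osteomodulin), Epyc (epiphycan), Aspn (asporin) and Podn (podocan), and all 10 were measured. Many of these proteins bind collagen fibrils and affect their thickness and spacing. Decorin and biglycan carry chondroitin or dermatan sulfate chains, lumican and fibromodulin can carry keratan sulfate, and asporin lacks the usual chain. In the artery wall decorin is known from the adventitia, and biglycan is known as a proteoglycan that can bind lipoproteins that carry apolipoprotein B.

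The cells came from aortic arches with their main branches and perivascular tissue of male mice that were 3 months old at the start, in 4 groups of 1 library each. Nrf2flox/flox mice, with floxed Nfe2l2 and no Cre, were the genotype control, and Nrf2Cdh5tKO mice carried the same floxed gene with Cre under the Cdh5 promoter, which is active in endothelial cells and in a part of the blood cells and removes exon 5. Normocholesterolemic mice (CTR) were given saline and a standard diet, and atherosclerotic mice (HFD) a single vector injection and a high-fat diet for 21 weeks. Tissue of 4 mice was pooled in each CTR library and of 3 mice in each HFD library, and DAPI-negative cells were sorted for 10x Chromium 3′ sequencing. The libraries are written flox CTR, tKO CTR, flox HFD and tKO HFD, by label, and values are given in that order. With 1 library a group there is no replicate, so no test was possible. Each ratio compares libraries, and intervals (95%) cover counting error only.

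The count tables held 1160 to 8512 barcodes and 12276546 to 98754487 UMIs (unique molecular identifiers, counted molecules) a library, and 7890, 2972, 1020 and 2266 cells were kept. Gating on 8 marker genes a class, none of them a member, gave 4289, 1581, 470 and 1205 fibroblasts, 1020, 289, 62 and 247 smooth muscle cells, 80, 46, 30 and 25 endothelial cells and 1455, 677, 369 and 417 leukocytes, while 8.73 to 16.3% of cells met no class. Libraries shared 1 to 7 kept barcodes a pair. The level of a gene is its UMIs per 1000000 UMIs of the cells summed (CPM), which in a 3′ assay counts 1 tag a molecule and does not scale with gene length. Nfe2l2, the targeted gene, stood at 190.2, 372, 168 and 353 CPM in endothelial cells and at 315, 306, 303 and 412 CPM in leukocytes. It was not lower in the libraries labelled Nrf2Cdh5tKO in endothelial cells. Exon 5 is the last exon of the annotated coding transcript (chr2:75675513-75677184), the end that 3′ counts mostly read, and the deposited counts do not say where in the gene a UMI lay. The counts therefore do not show the excision, and each genotype direction below rests on the label.

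Most members lie in 3 groups of neighbouring genes in the mouse genome (GRCm38, GENCODE M21). On chromosome 10, Dcn (chr10:97479609-97518143), Lum (chr10:97565128-97572703) and Epyc (chr10:97644068-97682454) lie within 203 kb together with Kera (keratocan). On chromosome 13, Aspn (chr13:49544443-49567565), Omd (chr13:49582462-49592822) and Ogn (chr13:49608046-49624501) lie within 80.1 kb, and on chromosome 1 Prelp (chr1:133910304-133921414) and Fmod (chr1:134037254-134048277) within 138 kb. Bgn (chrX:73483602-73495933) and Podn (chr4:108014791-108096445) stand alone. The genes of the chromosome 13 group overlap Cenpp on the opposite strand and Podn overlaps Scp2 on its own strand, so counts of Podn are less certain where reads could belong to either gene.

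RefSeq promoter windows (GRCm38.p6, 250 bases before to 50 after the start, written 5′ to 3′ on the gene's strand) matched 8 of the 10 members. The windows of Bgn and Ogn, which were abundant both in fibroblasts and in smooth muscle cells, are shown beside those of Fmod and Epyc, which were near the free RNA level in smooth muscle. Capitals mark TATAAA or GGGCGG on either strand, and neighbouring matches can overlap.
Bgn, chrX:73483351-73483650, strand +: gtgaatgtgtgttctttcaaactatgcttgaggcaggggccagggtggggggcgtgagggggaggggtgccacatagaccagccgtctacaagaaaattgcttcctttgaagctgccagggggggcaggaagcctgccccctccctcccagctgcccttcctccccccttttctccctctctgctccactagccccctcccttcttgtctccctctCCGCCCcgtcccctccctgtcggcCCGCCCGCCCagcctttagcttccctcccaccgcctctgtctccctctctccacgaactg
Ogn, chr13:49607765-49608064, strand +: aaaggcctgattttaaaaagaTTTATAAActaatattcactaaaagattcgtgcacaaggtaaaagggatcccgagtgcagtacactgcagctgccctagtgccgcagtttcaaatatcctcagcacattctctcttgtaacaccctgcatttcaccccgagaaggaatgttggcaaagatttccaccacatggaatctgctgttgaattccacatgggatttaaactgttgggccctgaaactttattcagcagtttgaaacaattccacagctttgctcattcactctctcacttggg
Fmod, chr1:134037004-134037303, strand +: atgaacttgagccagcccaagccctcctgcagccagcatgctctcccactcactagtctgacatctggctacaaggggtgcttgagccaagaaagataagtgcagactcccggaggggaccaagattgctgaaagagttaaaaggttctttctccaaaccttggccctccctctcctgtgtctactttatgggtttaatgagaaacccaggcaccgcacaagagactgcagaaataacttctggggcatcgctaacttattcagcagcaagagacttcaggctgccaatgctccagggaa
Epyc, chr10:97643818-97644117, strand +: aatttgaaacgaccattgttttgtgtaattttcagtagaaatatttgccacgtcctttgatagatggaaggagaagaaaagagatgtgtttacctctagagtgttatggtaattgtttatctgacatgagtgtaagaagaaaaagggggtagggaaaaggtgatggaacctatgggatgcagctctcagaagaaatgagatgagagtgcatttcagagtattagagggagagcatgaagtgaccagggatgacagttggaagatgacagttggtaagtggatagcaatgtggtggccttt
The Bgn window held 3 matches of GGGCGG and had a GC content of 63.7%, against 42.3% for Ogn, 51.0% for Fmod and 40.3% for Epyc. The Ogn window held 2 overlapping matches of TATAAA, and the Aspn window, not shown, held 2. Among all 32851 windows of this length, 35.7% held GGGCGG and 13.6% held TATAAA. The antioxidant response core TGACNNNGC and the CArG box were found in 12.4% and 1.63% of all windows on either strand and in 0 of the 10 windows of the members (Epyc and Podn have 2 each).

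Fibroblasts were the main source of the family. Together the 10 genes made up 2.15, 1.93, 2.23 and 2.14% of all UMIs in fibroblasts, against 0.39, 0.388, 0.363 and 0.383% in smooth muscle cells, 0.244, 0.193, 0.261 and 0.428% in endothelial cells and 0.0438, 0.0216, 0.0161 and 0.0244% in leukocytes. Among these 4 classes, 9 of the 10 members were highest in fibroblasts in all 4 libraries. The exception was Bgn, which was highest in smooth muscle cells in 4 of 4 libraries. The share of all genes that were highest in fibroblasts in every library is not given here.

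**Figure D1:**
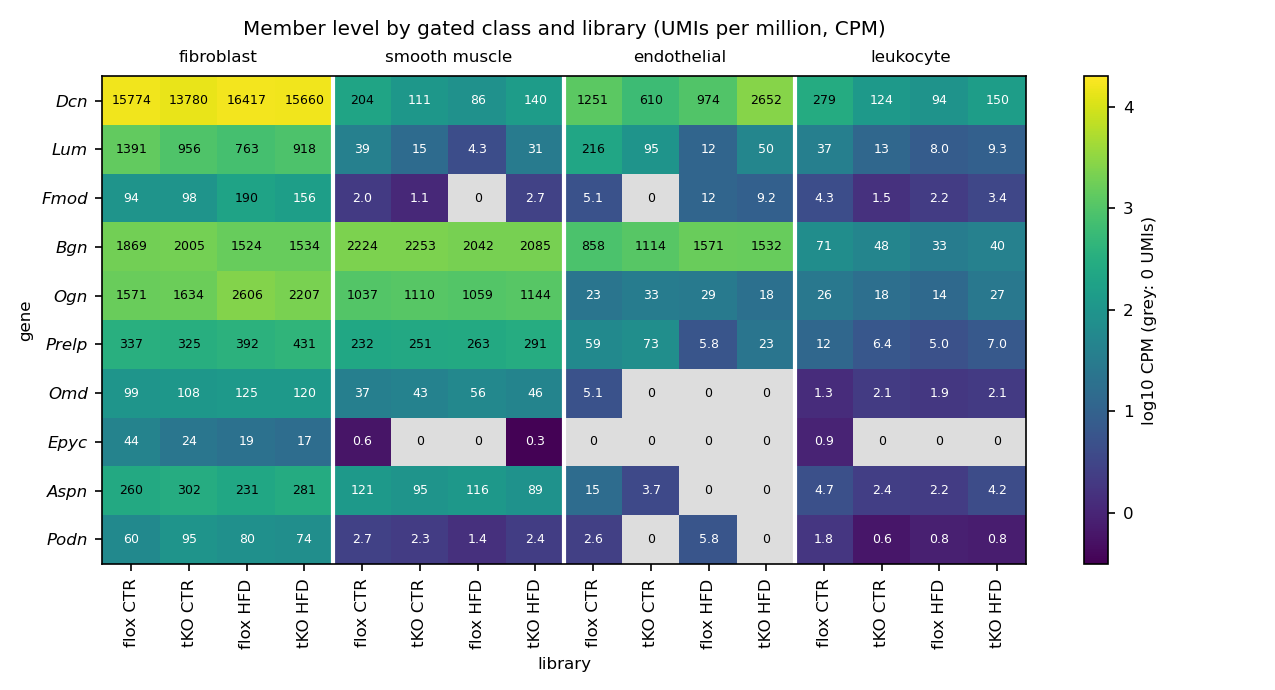
Level of each member (rows) in each gated class and library (columns) in CPM, with colour on a log10 scale and grey for 0 UMIs; flox and tKO stand for the Nrf2flox/flox and Nrf2Cdh5tKO labels. Fibroblasts hold all 10 genes, smooth muscle cells hold Bgn, Ogn, Prelp, Omd and Aspn, and endothelial cells hold Dcn and Bgn above the leukocyte level.

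Dcn was by far the most abundant member. Its level in fibroblasts was 15774, 13780.3, 16417 and 15660.3 CPM, so that it made up 71.3 to 73.5% of the UMIs of the family there, and it was found in at least 99.7% of fibroblasts of each library. The highest library (flox HFD) was 1.19 times the lowest (tKO CTR). Bgn, Ogn and Lum formed the next tier. Bgn stood at 1869, 2005, 1524 and 1534 CPM, lower in both HFD libraries than in both CTR libraries. Ogn stood at 1571, 1634, 2606 and 2207 CPM, higher in both HFD libraries. Lum, which is known for fibril spacing in the cornea, stood at 1391, 956, 763 and 918 CPM, with the highest value in flox CTR and the lowest in flox HFD. In the order of levels, Dcn was first in every library, Ogn was above Bgn in the HFD libraries and below it in the CTR libraries, and Lum came next in every library.

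Less abundant were Prelp, which can link basement membranes to collagen, with 337, 325, 392 and 431 CPM, and Aspn with 259.8, 302, 231 and 281 CPM. Omd, which is known from bone, stood at 99.4, 108, 125 and 119.8 CPM, and Fmod, known from tendon, at 94.5, 97.7, 190.0 and 156 CPM. Fmod was below or level with Omd in the CTR libraries, with overlapping intervals in flox CTR (91.8 to 97.2 for Fmod and 96.6 to 102 for Omd), and above it in the HFD libraries. The lowest were Podn with 60.4, 95.3, 80.1 and 73.7 CPM and Epyc, known from cartilage, with 44.0, 24.5, 19.4 and 16.6 CPM.

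**Figure D2:**
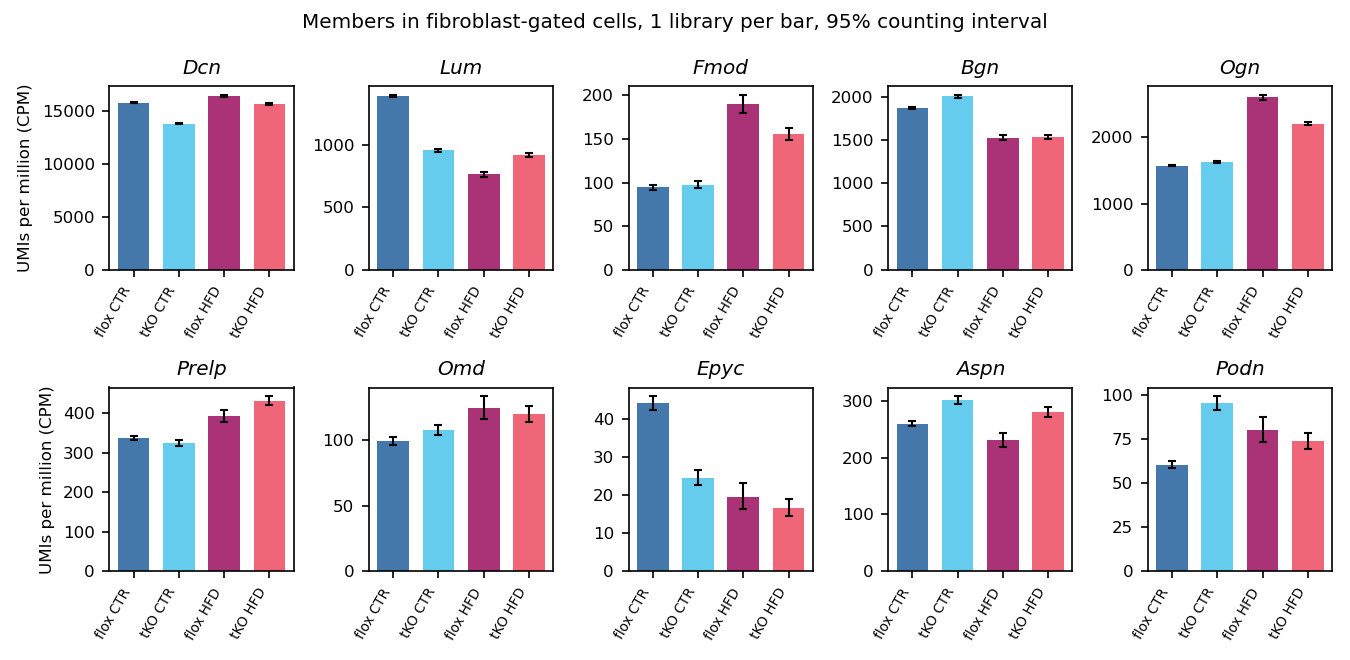
Level of each member in fibroblasts in CPM, 1 bar a library from 0, with the exact 95% Poisson interval of the count. Fmod and Ogn are higher and Bgn is lower in both HFD libraries than in both CTR libraries.

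The members differed in how evenly fibroblasts held them. With each cell thinned to 2000 UMIs, which left out 195, 59, 20 and 127 shallower cells, Ogn was found in 83.6, 82.5, 92.9 and 91.7% of fibroblasts, against 94.4, 96.2, 98.7 and 96.4% at full depth. Lum was found in 76.8, 72.3, 57.6 and 58.5% of thinned cells (94.3, 95.1, 84.3 and 79.9% at full depth), lower in the HFD libraries. Fmod was found in 11.6, 10.1, 19.6 and 21.2% of thinned cells (21.4, 19.6, 31.7 and 33.3% at full depth), higher in the HFD libraries. Thinned leukocytes, which should lack these genes, held Ogn in 4.13 to 7.71%, Lum in 1.49 to 8.58% and Fmod in 0.459 to 1.49% of cells, at a median depth before thinning of 7118 to 8927 UMIs against 10532 to 16498 in fibroblasts.

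Fmod was concentrated in a minority of fibroblasts. Cells with 5 or more Fmod UMIs made up 8.09, 9.49, 16.4 and 12.7% of fibroblasts and held 78.5, 87.7, 87.4 and 75.4% of its UMIs. For Epyc, 3.82, 2.59, 1.91 and 0.83% of fibroblasts had 5 or more UMIs and held 67.1, 63.7, 60.2 and 50.2% of them, so that the Epyc level of flox HFD and tKO HFD rested largely on 9 and 10 cells. Podn, at a higher level than Epyc in every library, was spread more thinly: its cells with 5 or more UMIs held 17.4, 38.8, 30.1 and 25.2% of its UMIs.

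Smooth muscle cells held a different selection of the family. A total of 5 members were at least 2-fold above the leukocyte level in all 4 libraries, namely Bgn, Ogn, Prelp, Omd and Aspn. The share of all genes that met this rule is not given here. Bgn stood at 2224, 2253, 2042 and 2085 CPM, 1.12 to 1.36 times the fibroblast level of the same library and 31.5 to 61.1 times the leukocyte level. Ogn stood at 1037, 1110.4, 1059 and 1144 CPM, 40.0 to 76.7 times the leukocyte level, and varied far less between libraries than in fibroblasts.

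Prelp stood at 232, 251, 263 and 291 CPM, Aspn at 121, 95.5, 116 and 89.4 CPM and Omd at 36.6, 43.0, 56.0 and 45.5 CPM in smooth muscle. These 3 genes were 18.7 to 52.9, 21.5 to 52.7 and 20.1 to 29.0 times the leukocyte level. The remaining 5 members were not at least 2-fold above it in all 4 libraries. Dcn stood at 204, 111, 86.2 and 140.4 CPM against 279, 124, 93.9 and 150.3 CPM in leukocytes, a ratio of 0.73 to 0.934, although it was found in 56.5 to 86.7% of smooth muscle cells and 57.5 to 83.3% of leukocytes at full depth. Lum, at 38.7, 14.9, 4.31 and 31.2 CPM, exceeded the leukocyte level beyond counting error in tKO HFD alone, although against T or NK cells alone it did so in 3 of 4 libraries. Podn stood at 2.68, 2.29, 1.44 and 2.40 CPM against 1.82, 0.612, 0.828 and 0.779 CPM in leukocytes. It exceeded the level of all leukocytes beyond counting error in tKO CTR alone, at 10 against 4 UMIs. Fmod, Epyc and Podn stood at 0 to 2.74, 0 to 0.589 and 1.44 to 2.68 CPM. In flox HFD, 0 of 695939 smooth muscle UMIs were Fmod, a count whose limit of 3 UMIs is 4.31 CPM and whose exact interval reaches 5.30 CPM.

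Compared directly, 6 of the 10 members (Dcn, Lum, Fmod, Omd, Epyc and Podn) were at least 2-fold higher in fibroblasts than in smooth muscle in all 4 libraries, and 0 were at least 2-fold lower. Over the 8898 genes with 10 CPM or more in either class, 10.9% were higher and 8.33% lower by this rule. The fold was 77.4 to 190.4 for Dcn, 29.5 to 177 for Lum and 22.5 to 55.7 for Podn. In smooth muscle these 3 genes were not at least 2-fold above the leukocyte level in all 4 libraries. For Omd the fold of fibroblasts over smooth muscle was 2.23 to 2.71, for Aspn 1.99 to 3.16, for Ogn 1.47 to 2.46 and for Prelp 1.30 to 1.49. The makeup of the family differed between the classes. In smooth muscle Bgn made up 54.4 to 58.1% and Ogn 26.6 to 29.9% of the member UMIs and Dcn 2.38 to 5.23%, while in fibroblasts Bgn made up 6.82 to 10.4% and Ogn 7.31 to 11.7%.

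**Figure D3:**
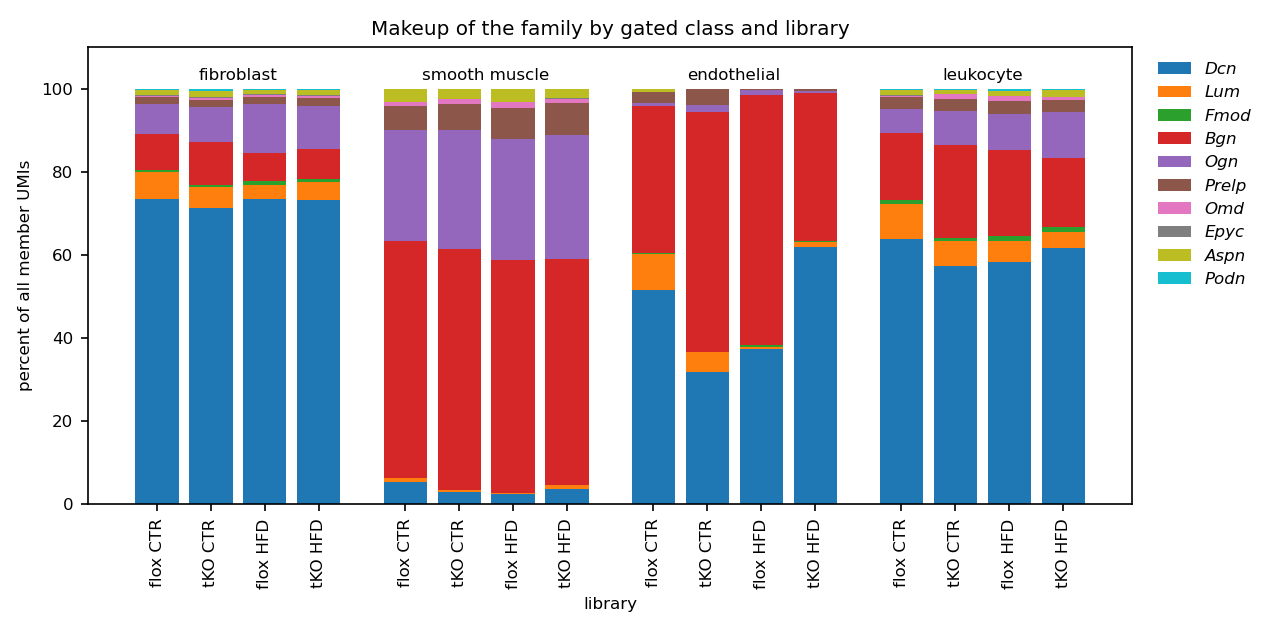
Share of each member among all UMIs of the 10 members (vertical axis, percent) in each gated class and library; flox and tKO stand for the Nrf2flox/flox and Nrf2Cdh5tKO labels. Dcn takes most of the bar in fibroblasts and leukocytes, Bgn and Ogn in smooth muscle, and Dcn and Bgn in endothelial cells.

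Leukocytes served as the measure of free RNA, the transcripts of other cells that enter every droplet. Dcn in leukocytes was 1.77, 0.899, 0.572 and 0.96% of its fibroblast level, highest in flox CTR. Ogn stood at a like share, 1.65, 1.10, 0.53 and 1.21%, and Bgn at a higher one, 3.78, 2.41, 2.19 and 2.64%. The makeup of the family in leukocytes was near that of the whole library for Ogn, with 9.29, 14.4, 14.7 and 17.8 UMIs per 100 Dcn UMIs against 12.2, 13.4, 16.3 and 15.7. For Bgn it was not, with 25.3, 39.0, 35.6 and 26.9 against 17.7, 18.4, 11.1 and 13.5 UMIs, a higher ratio in leukocytes in 4 of 4 libraries. T or NK cells alone gave 30.1, 36.0, 47.2 and 25.4 Bgn UMIs per 100 Dcn UMIs.

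Endothelial cells held yet another selection, with Dcn and Bgn above the leukocyte level and Ogn at it. The gate held only 25 to 80 cells a library. Dcn stood at 1251, 609.8, 974 and 2652 CPM, 4.48 to 17.6 times the leukocyte level, and Bgn at 858, 1114, 1571 and 1532 CPM, 12.2 to 47.0 times. These ratios were taken at full depth, without thinning the cells. Ogn stood at 23.1, 32.9, 29.0 and 18.3 CPM, and its ratio to leukocytes of 0.686 to 2.10 had an interval that included 1 in 4 of 4 libraries. Lum was above the leukocyte level beyond counting error in 3 of 4 libraries and Prelp in 2 of 4.

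The Dcn counts of endothelial cells came mostly from a few cells, split here at 10 Dcn UMIs, a limit chosen after the values were seen. The 9, 3, 4 and 5 cells at or above it held 407, 113, 138 and 545 of the 487, 167, 168 and 578 Dcn UMIs. They were deeper a cell in every library, with 79977, 41621, 57584 and 105642 UMIs of all genes. The other 71, 43, 26 and 20 cells held 309186, 232228, 114943 and 112347. A limit on raw UMIs favours deep cells, and the part of depth or of doublets was not tested. The cells at or above the limit held 205, 50, 140 and 152 UMIs of Pecam1, an endothelial adhesion molecule, and 2, 0, 0 and 1 UMIs of Ogn. Pecam1 stood at 2563, 1201, 2431 and 1439 CPM there, against 1530, 1916, 2001 and 2492 CPM in the other endothelial cells. Cdh5 was lower there in every library, at 375, 505, 955 and 577 CPM against 1119, 1167, 1122 and 846 CPM, with overlapping intervals in the HFD libraries. Vwf and Cytl1 were each higher there in some libraries and lower in others. A cell entered the endothelial class with at least 2 times as many endothelial markers as of any other class. Low counts of a fibroblast gate marker such as Pdgfra are therefore partly fixed by the gate. Of Pdgfra the cells at or above the limit held 2, 0, 1 and 6 UMIs, and of Col1a1 7, 0, 1 and 0. Of Col1a2 they held 12, 11, 4 and 53 UMIs, the last at 502 CPM against 35.6 CPM in the other endothelial cells of tKO HFD. They also held 75, 25, 1 and 10 of the 84, 26, 2 and 11 Lum UMIs and 18, 6, 0 and 0 of the 23, 20, 1 and 5 Prelp UMIs. In the other endothelial cells Dcn stood at 259, 233, 261 and 294 CPM, against 279, 124, 93.9 and 150.3 CPM in leukocytes. Bgn stood at 621, 956, 1514 and 1317 CPM in those other endothelial cells, so it did not rest on the few cells at or above the limit. Lum in the other endothelial cells stood at 29.1, 4.31, 8.70 and 8.90 CPM, against 36.6, 12.8, 8.01 and 9.34 CPM in leukocytes.

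Fibroblasts were then split by whichever of Pi16, Penk, Cilp and Comp had most UMIs in a cell (at least 2). The Pi16 set held 3275, 1388, 378 and 844 cells, the Penk set 253, 52, 13 and 42, the Cilp set 60, 21, 6 and 6 and the Comp set 236, 52, 31 and 141, with 44, 10, 6 and 17 ties and 421, 58, 36 and 155 cells under 2 UMIs of all 4 genes. Median depth was 11534 to 16684 UMIs in the Pi16 set, 11845 to 16866 in the Penk set, 9946 to 18040.5 in the Comp set and 2636 to 5380.0 in the cells under the limit. The Comp set made up 5.50, 3.29, 6.60 and 11.7% of fibroblasts.

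The Comp set held more of the family than the Pi16 set, 2.73, 2.45, 2.99 and 2.56% of its UMIs against 2.03, 1.91, 2.14 and 2.03%. In tKO HFD the Penk set held more still, 2.74%, as did the Cilp set in flox CTR, 2.97%. Against the Pi16 set of the same library, 4 of the 10 members (Fmod, Lum, Podn and Bgn) were at least 1.5-fold higher in all 4 libraries and 1 (Epyc) was lower, where 1.97% and 3.14% of the 8064 genes with 10 CPM or more in fibroblasts were higher and lower. Fmod stood at 398, 419.6, 391 and 312 CPM in the Comp set and 76.9, 88.3, 160.1 and 125 CPM in the Pi16 set, 2.44 to 5.17 times. The lowest Comp set value was above the highest Pi16 set value, and within the Comp set tKO HFD was the lowest library.

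Lum stood at 2778, 1776, 1841 and 2023 CPM in the Comp set against 1217, 901, 624 and 683 CPM in the Pi16 set, 1.97 to 2.96 times. Podn was 1.74 to 1.95 times and Bgn 1.5 to 1.88 times the Pi16 level. Prelp was higher as well, 1.33 to 2.39 times, which fell short of 1.5-fold in flox HFD. Dcn and Ogn differed little, with 1.16 to 1.30 and 1.04 to 1.31 times. Epyc was low in the Comp set, with 28, 10, 0 and 5 UMIs, or 10.5, 12.2, 0 and 3.51 CPM against 42.1, 22.5, 15.0 and 16.6 CPM in the Pi16 set. The floor of 3 UMIs gives at least 2.12-fold lower Epyc in flox HFD, and the interval of the Epyc ratio in tKO CTR included no difference. With cells thinned before the split, with a mean over cells or with a stricter gate, 0 members were lower in all 4 libraries.

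The Penk set, which held only 13 cells in flox HFD, held more Epyc and Podn. Both were at least 1.5-fold above the Pi16 set in all 4 libraries, against 1.30% of all genes higher and 1.90% lower. Epyc stood at 70.4, 111, 28.6 and 68.2 CPM, 1.67 to 4.94 times the Pi16 level, with 213, 94, 5 and 37 UMIs. Podn stood at 104, 172, 148 and 133 CPM, 1.89 to 2.12 times. With a minimum of 5 UMIs for a set, or with thinned cells, 0 members passed. Fmod was low there in the CTR libraries, with 57 UMIs (18.8 CPM) in flox CTR and 1 UMI (1.18 CPM) in tKO CTR, and higher in the HFD libraries, with 109 and 84.8 CPM. The Comp gene moved the same way in these cells, at 17.5, 4.73, 103 and 44.2 CPM, and its part in the Fmod values was not tested.

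In the Cilp set, with 6 to 60 cells a library, Bgn and Aspn were higher than in the Pi16 set, 1.51 to 2.03 and 1.54 to 4.96 times. Epyc ranged from 0 to 479 CPM there on 182, 3, 38 and 0 UMIs. The cells under 2 UMIs of all 4 genes were shallow and held Fmod at 136, 167, 492 and 317 CPM, above the Pi16 set in 4 of 4 libraries, and Aspn at 159, 130.4, 149 and 229 CPM, below it in 4 of 4.

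**Figure D4:**
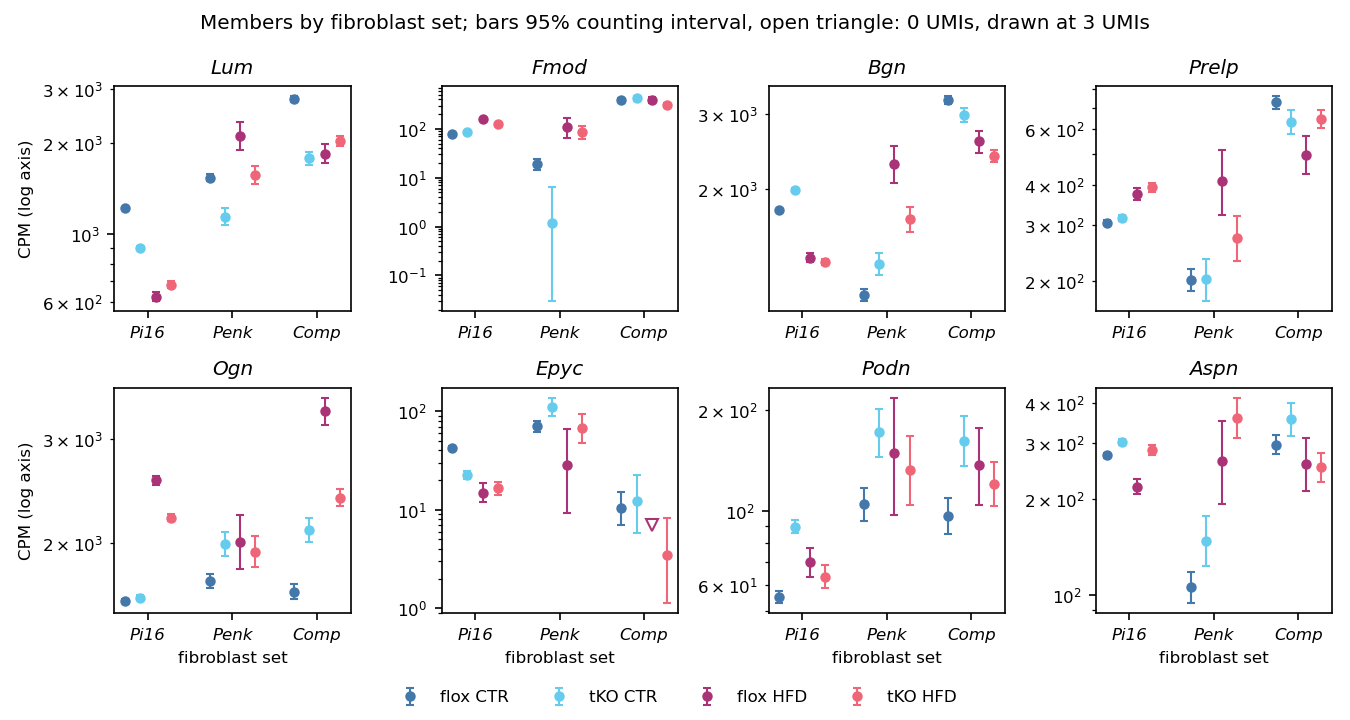
Level of 8 members in the Pi16, Penk and Comp sets of fibroblasts (horizontal axis) in CPM on a log axis, 1 point a library with its exact 95% Poisson interval; an open triangle marks 0 UMIs and is drawn at 3 UMIs. Fmod and Bgn are highest in the Comp set in all 4 libraries and Lum in 3 of 4, and Epyc is highest in the Penk set and lowest in the Comp set in every library.

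The next comparison asked how the family differed between the high-fat diet and the control libraries in fibroblasts, within each genotype label. The pairs share no library. In the flox pair, 4 of 10 members passed 1.5-fold, Fmod and Ogn higher and Lum and Epyc lower in HFD, against 10.3% of the 8064 genes tested. In the tKO pair 1 of 10 passed, Fmod, against 5.75% of genes. The median size of the log2 ratio was 0.37 over members and 0.23 over all genes in the flox pair, and 0.38 and 0.15 in the tKO pair.

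Fmod was 94.5 (95% interval 91.8 to 97.2) CPM in flox CTR and 190.0 (95% interval 179.7 to 201) CPM in flox HFD, a log2 ratio of 1.01 (0.92 to 1.10). In the tKO pair the log2 ratio was 0.67 (0.59 to 0.76). Ogn had log2 ratios of 0.73 (0.71 to 0.75) and 0.43 (0.41 to 0.46), and Prelp, which did not pass 1.5-fold, had 0.22 (0.16 to 0.28) and 0.41 (0.36 to 0.46). Both HFD libraries were thus above both CTR libraries for Fmod, Ogn, Prelp and Omd. Bgn went the other way, with -0.29 (-0.32 to -0.26) and -0.39 (-0.41 to -0.36).

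Lum and Epyc differed between the pairs in size. Lum had a log2 ratio of -0.87 (-0.91 to -0.83) in the flox pair and -0.06 (-0.09 to -0.03) in the tKO pair, and Epyc -1.18 (-1.45 to -0.92) and -0.56 (-0.79 to -0.33). For both genes flox CTR was the highest library and the other 3 lay closer together. Podn had opposite signs, 0.41 (0.27 to 0.54) and -0.37 (-0.48 to -0.26). Aspn and Dcn had log2 ratios within -0.17 to 0.18.

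The share of the Comp set differed between the libraries, so the ratios were also taken within sets. Within the Pi16 set, Fmod had log2 ratios of 1.06 (0.95 to 1.17) in the flox pair and 0.50 (0.39 to 0.60) in the tKO pair, the second under 1.5-fold. Within the Comp set the higher Fmod of HFD was not seen, with -0.02 (-0.27 to 0.21) and -0.43 (-0.63 to -0.22). Among the cells under 2 UMIs of all 4 set genes Fmod was higher in HFD, 1.86 (1.51 to 2.19) and 0.93 (0.56 to 1.31). The Comp set itself was 3.29% of fibroblasts (interval 2.47 to 4.29%) in tKO CTR and 11.7% (9.94 to 13.7%) in tKO HFD. Ogn was higher in HFD within the Pi16 set, 0.68 (0.65 to 0.71) and 0.45 (0.43 to 0.48), and within the Comp set, 1.02 (0.93 to 1.10) and 0.18 (0.10 to 0.26). Within the small Penk sets Ogn had 0.22 (0.06 to 0.38) and -0.04 (-0.16 to 0.07), and within the small Cilp sets 1.30 and -0.09. Prelp and Omd, higher over all fibroblasts, were lower within the Comp set of 1 pair each, Prelp in the flox pair, -0.55 (-0.76 to -0.34), and Omd in the tKO pair, -0.60 (-0.90 to -0.29). Median depth of fibroblasts also differed, at 11966, 16498, 13933 and 10532 UMIs, and its part in these ratios was not tested.

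Lum within the Pi16 set was lower in HFD in both pairs, -0.96 (-1.01 to -0.92) and -0.40 (-0.44 to -0.36), whereas over all fibroblasts the tKO pair hardly differed. In the Penk set, on few cells, Lum was higher in HFD in both pairs, 0.46 (0.30 to 0.61) and 0.46 (0.32 to 0.59). Within the Comp set Lum was lower in the flox pair, -0.59 (-0.70 to -0.49), and higher in the tKO pair, 0.19 (0.10 to 0.28). Bgn was lower within the Pi16 set, with -0.37 (-0.40 to -0.34) and -0.56 (-0.59 to -0.54) and within the Comp set, with -0.32 (-0.42 to -0.23) and -0.32 (-0.40 to -0.24), but higher within the small Penk sets, with 1.02 (0.87 to 1.17) and 0.35 (0.22 to 0.48). Among the cells under 2 UMIs of all 4 set genes Bgn had -0.10 (-0.25 to 0.05) and 0.49 (0.37 to 0.62). Epyc was lower within the Pi16 set, -1.49 (-1.82 to -1.18) and -0.44 (-0.70 to -0.18), but higher in flox HFD in the Cilp set of 6 cells, which also made it higher in the mean of the 4 sets with equal weights.

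**Figure D5:**
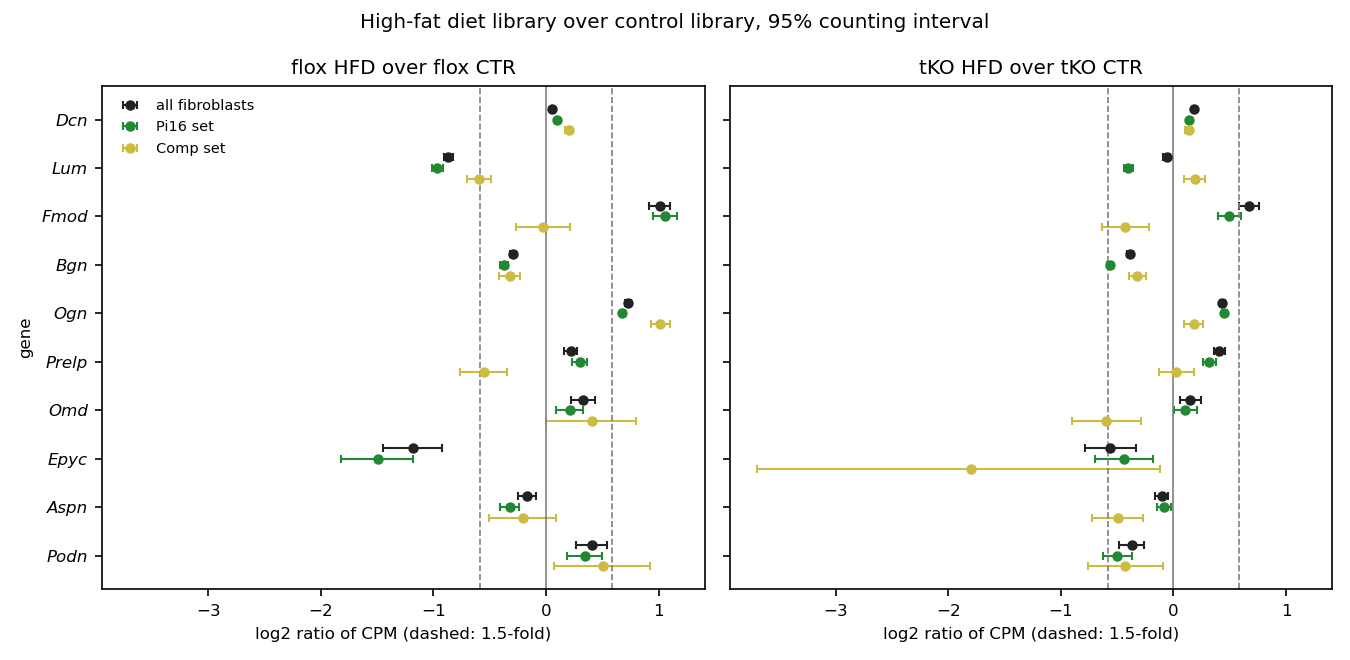
The log2 ratio of CPM, HFD library over CTR library (horizontal axis), for each member in all fibroblasts, the Pi16 set and the Comp set, with the exact 95% counting interval; dashed lines mark 1.5-fold, and ratios with a count of 0 are not drawn. Fmod is right of 0 in all fibroblasts and in the Pi16 set of both pairs but not in the Comp set, and Bgn is left of 0 throughout.

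Between the genotype labels, 2 of 10 members passed 1.5-fold in fibroblasts of the CTR libraries, against 6.56% of genes, and 0 of 10 in those of the HFD libraries, against 2.03%. These ratios use the same libraries as the diet ratios. In the CTR pair Podn was higher in the library labelled Nrf2Cdh5tKO, with a log2 ratio of 0.66 (0.58 to 0.74), and Epyc lower, -0.84 (-0.98 to -0.72). Within the Penk set Epyc was instead higher in tKO CTR, 0.66 (0.29 to 1.02), and within the Comp set the ratio of 0.22 (-0.99 to 1.30) had an interval that included 0. Lum was lower in tKO CTR than in flox CTR, -0.54 (-0.56 to -0.52), and higher in tKO HFD than in flox HFD, 0.27 (0.22 to 0.32). The largest ratios of the HFD pair were those of Fmod, -0.29 (-0.39 to -0.19), and Aspn, 0.28 (0.19 to 0.37).

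In smooth muscle cells the same comparisons were made for the 5 members above the leukocyte level. For the diet, 1 of 5 passed 1.5-fold in the flox pair, against 26.3% of the 7857 genes tested, and 0 of 5 in the tKO pair, against 8.77%. For the genotype label 0 of 5 passed in the CTR pair (8.95% of genes) and 0 of 5 in the HFD pair (19.0%). Bgn had diet log2 ratios of -0.12 (-0.20 to -0.05) and -0.11 (-0.16 to -0.07), and Ogn of 0.03 (-0.08 to 0.14) and 0.04 (-0.02 to 0.11), against 0.73 and 0.43 for Ogn in fibroblasts. The gene that passed was Omd in the flox pair, 0.61 (0.11 to 1.08) on 39 UMIs in flox HFD. The median log2 ratio of all genes in this pair was 0.13, and relative to it Omd fell short of 1.5-fold. Aspn was lower in both libraries labelled Nrf2Cdh5tKO, with genotype log2 ratios of -0.34 (-0.50 to -0.19) in the CTR pair and -0.38 (-0.75 to -0.0028) in the HFD pair, where the fibroblast ratios of Aspn were 0.22 and 0.28. With a stricter gate the smooth muscle ratio of Aspn turned to 0.054 in the CTR pair and was -0.48 in the HFD pair. Omd had genotype log2 ratios of 0.23 (-0.014 to 0.47) and -0.30 (-0.82 to 0.25), both with an interval that included 0.

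Other genes of the family and its pathway were taken from lists. Of 8 further small leucine-rich proteins, Ecm2, whose gene adjoins Aspn, was as high in smooth muscle (256, 248, 274 and 255 CPM) as in fibroblasts (231, 215, 239 and 211 CPM). Optc (opticin), which adjoins Prelp, was the reverse of most members, with 194, 178, 84.8 and 107 CPM in smooth muscle against 1.21 to 2.91 CPM in fibroblasts and 0.828 to 2.75 CPM in leukocytes. It was lower in HFD in both smooth muscle pairs, with log2 ratios of -1.19 and -0.73, and overlaps an antisense gene. Tsku and Chadl stood at 11.6 to 15.7 and 10.3 to 12.9 CPM in fibroblasts, and Kera, between Lum and Epyc, at 0 to 0.518 CPM.

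Of 12 fibril collagens and partners, 11 were tested in the fibroblast comparisons, led by Col1a2 (2892 to 4204 CPM), Col3a1 (1268 to 3277 CPM) and Col1a1 (1368 to 2337 CPM). Dcn was above each fibrillar collagen in every library. In the tKO diet pair 6 of the 11 (Col1a1, Col3a1, Col5a1, Col5a2, Col6a1 and Eln) were lower past 1.5-fold and 0 higher. Of all 8064 genes tested in this pair, 274 were lower and 190 higher. The median log2 ratio of the 11 was -0.65 against -0.04 over all genes. In the flox diet pair 2 of the 11 (Col14a1 and Lox) were higher and 0 lower, with a median of -0.02. Of all 8064 genes, 537 were higher and 294 lower there. Between the genotype labels in CTR, 2 of the 11 (Col3a1 and Eln) were higher in tKO CTR and 0 lower, with a median of 0.43. Of all genes, 377 were higher and 152 lower in that pair. In the HFD genotype pair 0 of the 11 passed, with a median of -0.23, against 2.03% of all genes. In smooth muscle of the tKO pair 6 of 10 were lower, where 8.77% of all genes passed 1.5-fold either way.

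Of 24 genes that build the sugar chains, 15 were tested in fibroblasts, with Chpf (75.8 to 90.1 CPM), Csgalnact2 (65.7 to 83.6 CPM) and Chst12 (59.1 to 78.7 CPM) the highest. Of these genes 0 of 15 passed 1.5-fold in the flox diet pair, against 10.3% of all genes, and 2 (Xylt1 and Chsy1, both lower in HFD) in the tKO pair, against 5.75%. Among the large proteoglycans, Vcan (versican) stood at 259.9, 348, 196 and 189 CPM and Hspg2 (perlecan) at 108 to 153 CPM in fibroblasts, and Acan (aggrecan) at 8.57, 17.4, 23.0 and 12.0 CPM in smooth muscle. Of 6 proteinases that can cut these matrix proteins, 5 were at least 2-fold higher in fibroblasts than in smooth muscle in all 4 libraries, against 10.9% of all genes, led by Adamts5 with 462, 650.3, 867 and 728 CPM. Mmp2 was lower in HFD past 1.5-fold in both smooth muscle pairs, with an interval that included 0 in the flox pair.

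The genes most like each member, with the other members left out, were sought over 27 points by Pearson correlation of log2(CPM + 1) among 10220 genes. Each point is a class or fibroblast set of 50 or more cells in 1 library. The points share libraries and depth, so r is a description. For Dcn these genes were Abca8b, Dpt and Cygb (r = 0.99), and for Lum Dpt, Abca8b and Ptgfr (r = 0.97). Lum was closer still to the member Dcn (r = 0.98). Fmod was followed by Pex5l, Fam180a and AI507597 (r from 0.96 to 0.98). The members shared with smooth muscle had other neighbours. Among the genes most like Bgn were Fbln5 and Igfbp7 (r = 0.99). Ogn was most like Aebp1, Col6a2 and Pdgfrb (r from 0.98 to 0.99) and Prelp like Scarf2, Ginm1 and P3h3 (r from 0.98 to 0.99). Omd was followed by Loxl1, Mmp23 and Ednra (r = 0.97), and Aspn by Foxp2, Itgbl1 and Sema3b (r = 0.98). Epyc had the weakest likeness, with Col5a3, Xpnpep2 and Gpx3 (r from 0.92 to 0.94), and Podn was closest to Smoc2, Pdgfra and Serping1 (r = 0.98). Dpt and Pdgfra were also markers of the fibroblast gate.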

How the data were processed

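Cells of 4 pooled samples of aortic arch were profiled by the 10x Chromium 3′ assay. The deposited counts are UMIs per gene and barcode, which the authors made with Cell Ranger 6.1.2 against the mouse mm10 reference, with no further normalization. The members, gene lists, gate markers and comparisons were chosen with earlier results of these data known.

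A barcode was kept if it had from 200 to 6000 detected genes and no more than 15% of its UMIs from mitochondrial genes. A cell entered a class with at least 3 of 8 markers and at least 2 times as many as of any other class. Of the 8 phagocyte markers used to split leukocytes, 7 were in the tables. No doublet caller was run, and the upper gene limit and the gate were the only guards. A fibroblast entered the set of the gene among Pi16, Penk, Cilp and Comp with most UMIs, at least 2, and ties stayed apart.

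Raw UMIs were summed per class and library and divided by the sum of all UMIs of these cells (CPM). Intervals are exact at 95%, Poisson for levels, binomial for ratios and Clopper-Pearson for shares. PCR and sampling of animals are outside them. A count of 0 was set to 3 counts for a bound, which was dropped where it pointed the other way. A gene was called past 1.5-fold between libraries among genes with a mean of 10 CPM in those cells, and past 2-fold between classes. No test, standard error or p-value was computed, since each group is 1 library of pooled mice. The ratio interval, the 1.5-fold call and the thinning were checked on simulated Poisson counts, which hold no differences between animals. Other steps were not checked in this way. The named genes were all members, Nfe2l2 and the 3 most abundant of each list in fibroblasts. List genes past 1.5-fold the same way in both pairs of a contrast were named too. Also named were the 3 genes with the highest correlation to each member, other members left out, among genes with 20 CPM in at least 1 point. A gene that this rule names is not reported here. Members of lists that are named beside a count were chosen after their values were seen. Alternatives were other gates, scalings, weights and mitochondrial limits, thinned cells, subtraction of the leukocyte level and values within fibroblast sets. Scripts ran in Python 3.11.15 with pandas 2.3.3, scipy 1.17.1, matplotlib 3.10.9 and numpy 2.4.6. Promoter windows are from RefSeq. Whether counting used strand is not given in the sources used here.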

Additional observations from a re-analysis of the deposited data

Results flagged for a closer look

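In fibroblasts 4 members had ratios of opposite sign in the 2 pairs of libraries of the same contrast with both counting intervals apart from 0. The share of all genes with such ratios is not given here. None of these differences between pairs was tested, since each group is 1 library. Podn had a diet log2 ratio of 0.41 in the flox pair and -0.37 in the tKO pair. Lum had a genotype log2 ratio of -0.54 in the CTR pair and 0.27 in the HFD pair. For Ogn the genotype log2 ratios were 0.056 and -0.24, and for Prelp -0.052 and 0.14. Because both contrasts use the same 4 libraries, each library enters 1 diet ratio and 1 genotype ratio at once. The highest Lum and the lowest Podn value were those of flox CTR, and the highest Podn value was that of tKO CTR. Flox CTR does not enter the tKO diet ratio of Podn or the HFD genotype ratio of Lum. Counts of Podn are less certain because the gene overlaps Scp2.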

How the results depend on the processing

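No paired analysis was possible because each group is 1 library. Of 112 alternative values of the counts, 87 were unchanged. Of 60 member ratios 8 passed 1.5-fold, and of these 3 had the same sign and 0 passed 1.5-fold in every alternative. Of 458 alternative values of member ratios, those within fibroblast sets included, 201 lay outside the counting interval. The mean over cells and the stricter gate for the fibroblast sets, and the stricter gate for smooth muscle over leukocytes, were chosen after seeing the data. Members lower in the Comp than the Pi16 set went from 1 to 0 with thinned cells, a mean over cells or the stricter gate. Members higher in the Penk set went from 2 to 0 with at least 5 UMIs or thinned cells, and members lower there from 0 to 1 with at least 1 UMI, at least 5 UMIs or thinned cells.

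For the flox diet pair, the 4 members past 1.5-fold became 2 within the Comp set, 6 within Penk and 6 within Cilp. Epyc turned to 0.46 with the 4 sets at equal weights and to 0.90 within the Cilp set, Fmod to -0.023 within the Comp set and Lum to 0.46 within the Penk set. For the tKO diet pair, 1 member became 0 within the Pi16 set, 2 within Comp, 4 within Penk and 3 within Cilp, and Fmod turned to -0.43 within Comp. For the genotype label in CTR, 2 members became 4 within Cilp, and Epyc turned to 0.22 within Comp and 0.66 within Penk. In HFD, 0 members became 2 with equal weights, 3 within Penk and 5 within Cilp. The Penk and Cilp sets of the HFD libraries hold 6 to 42 cells, which limits these values. The share of all genes past 1.5-fold within these sets or with equal weights is not given here. The counts are therefore no result about the members. Ties and cells under the limit were not run as sets for these counts.

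With no minimum level, all genes past 1.5-fold in fibroblasts went from 831 to 4052 and from 464 to 3196 for the diet, and from 529 to 3824 and from 164 to 2353 for the genotype label, the last also to 269 with a mean over cells. In smooth muscle, Omd of the flox diet pair was no longer past 1.5-fold with median of ratios scaling, leaving 0 members. With the leukocyte level subtracted, all genes past 1.5-fold went from 689 to 1570 in the tKO diet pair and from 703 to 1457 for the genotype label in CTR. The cause of these changes was not tested, except that a lower minimum admits more genes.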

Other observations

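Mesothelial cells were gated in 3 libraries only, 11 cells in flox CTR, 16 in tKO CTR and 2 in tKO HFD. They held Dcn at 6181, 6396 and 3442 CPM and Fmod at 112, 529 and 818 CPM. Prelp stood at 264, 264 and 375 CPM. Lum had 6, 0 and 1 UMIs there and Aspn 0 in each of the 3 libraries, although both genes were more abundant than Fmod in fibroblasts. Fmod was above its fibroblast level of the same library in tKO CTR and tKO HFD, while in flox CTR its interval of 61.1 to 188 CPM included the fibroblast level, and Lum was below its own. Cells that met no class, 1035, 358, 89 and 370 a library, held Dcn at 5807, 5107, 7690.1 and 7325 CPM and Bgn at 1899, 1804, 1131 and 1464 CPM.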
